A study of Mus musculus with 12 samples.

Results

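The genes described are the metalloproteases that cut the matrix around cells and proteins on the cell surface, the inhibitors of these enzymes and the thrombospondins. They comprise the families Adam, Adamts, Adamtsl, Mmp, Timp and Thbs, chosen by the form of the gene symbol. Of 23123 symbols in the authors' deposited table, 82 have such a name, and 33 of those reached 1 FPKM (fragments per kilobase of transcript, scaled to the number of mapped fragments) in at least 1 group and were kept. The kept genes are 9 of 27 Adam, 8 of 19 Adamts, 3 of 5 Adamtsl, 7 of 23 Mmp, 3 of 4 Timp and 3 of 4 Thbs symbols. The other 49 stayed below 1 FPKM, and 18 of those are listed at 0 in every group.

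C2C12 cells, an established line of mouse myoblasts, were grown for 24 h in DMEM with one of 3 sugar supplies: glucose at 25 mM, called high glucose, glucose at 5 mM, called low glucose, or galactose at 10 mM. All 3 media also held serum, pyruvate, penicillin and streptomycin. There were 12 libraries of polyA RNA, 4 for each medium. The design text of the series speaks of single muscle stem cells, while the labels of these samples name C2C12 cells, and the labels were followed. The table holds 1 pooled FPKM per group, so no SD or n can be given, the depth is unknown, and the authors' p-values and q-values describe these libraries only. Whether the 4 libraries of 1 medium stem from separate cultures is not stated in the labels, so the spread behind those tests may be technical. In RNA of bulk cells, fewer cells of a type and less RNA per cell cannot be told apart.

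As background, matrix metalloproteases (MMPs) are zinc enzymes that cut collagens, laminins and growth factor carriers, ADAMs are membrane proteins of which several shed growth factors and receptors, and ADAMTS enzymes are secreted proteases that cut proteoglycans or trim procollagens. Tissue inhibitors of metalloproteases (TIMPs) bind the active site of these enzymes. Thrombospondins are secreted proteins that bind cell surface receptors, collagens and proteases, and ADAMTS and ADAMTSL proteins carry repeats named after them. In muscle, these proteins act on the matrix around fibres and stem cells and in the fusion and repair of fibres.

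The members' levels spanned over 2 orders of magnitude, and 5 reached 100 FPKM in at least 1 group: Thbs1, Timp1, Timp2, Timp3 and Mmp14. In high glucose Thbs1 and Timp1 stood highest, at 335 and 327 FPKM, and together with Timp2 and Mmp14 they made up 69.0% of the members' summed FPKM. In galactose Timp1 led with 405 FPKM and Thbs1 had dropped out of the highest 5. A further 13 members reached 10 FPKM, which makes 18 in all, and 15 lay between 1 and 10 FPKM. The summed level of all 33 was 1672 FPKM with high glucose, 1660 with low glucose and 1362 with galactose.

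**Figure D1:**
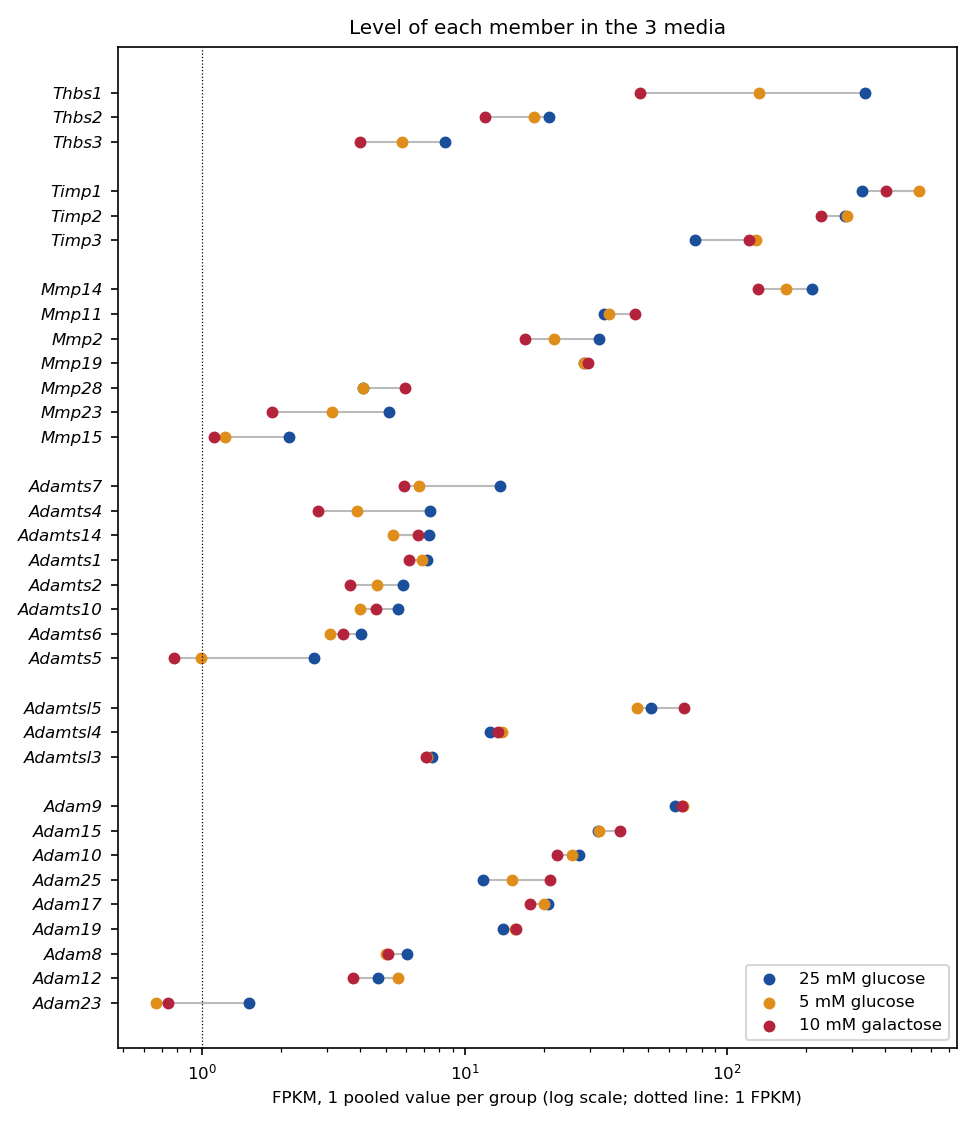
Level of each of the 33 members in FPKM (x axis, log scale) in 25 mM glucose, 5 mM glucose and 10 mM galactose, with 1 pooled point per group and no error, ordered by family. Thbs1 spans the widest range, from 46.6 to 335 FPKM, while Mmp19, Adam9 and Adamtsl3 have all 3 points close together.

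The choice of members used their level, so the lowest ones are given as a description. Just inside the limit of 1 FPKM lie Adam23, with a highest value of 1.51 FPKM, and Mmp15, with 2.14. Just outside it lie Mmp16, with a highest value of 0.566 FPKM, and Adam11, with 0.296. At least 1 FPKM was listed in every group for 31 members, while Adam23 and Adamts5 passed in high glucose alone and were thereby bound to be higher there. All 33 were tested by the authors in all 3 comparisons.

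A gene is called here where the authors' q is below 0.05. From high to low glucose, 4 members were called higher and 16 lower (48.5% of members), while over all 14699 tested loci 18.3% were called higher and 18.2% lower. From high glucose to galactose, 6 were called higher and 20 lower (60.6%), beside 26.5% higher and 24.8% lower over 14812 loci. From low glucose to galactose, 6 were called higher and 15 lower (45.5%), beside 17.4% higher and 16.0% lower over 14495 loci. Among tested loci of at least 1 FPKM, the shares called lower were 17.5%, 24.5% and 16.2%. Calls toward lower values thus took a larger share of members than of loci in each comparison, and calls toward higher values a smaller or like share. Without Adam23 and Adamts5 the counts of members called lower were 14, 18 and 14 of 31.

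The median log2 fold change of the members was -0.17 from high to low glucose. It was -0.25 between high glucose and galactose, and -0.14 between low glucose and galactose. The medians over all tested loci were 0.0069, 0.0058 and 0.010. Few of the changes were large. A fall of at least 2-fold was called for 4, 7 and 1 members in the 3 comparisons, beside 2.45%, 5.16% and 1.17% of all tested loci. Without Adam23 and Adamts5, which were bound to be higher in high glucose, the counts were 2, 5 and 1 of 31. No member was called higher by 2-fold in any comparison, beside 0.864%, 3.27% and 1.69% of loci. The 3 comparisons share their libraries and are not independent of each other. The summed FPKM of the whole table differs between groups, and scaling the groups to the same sum would shift every log2 fold change from high glucose to galactose by -0.17. No called member changes its direction under that scaling in any comparison.

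**Figure D2:**
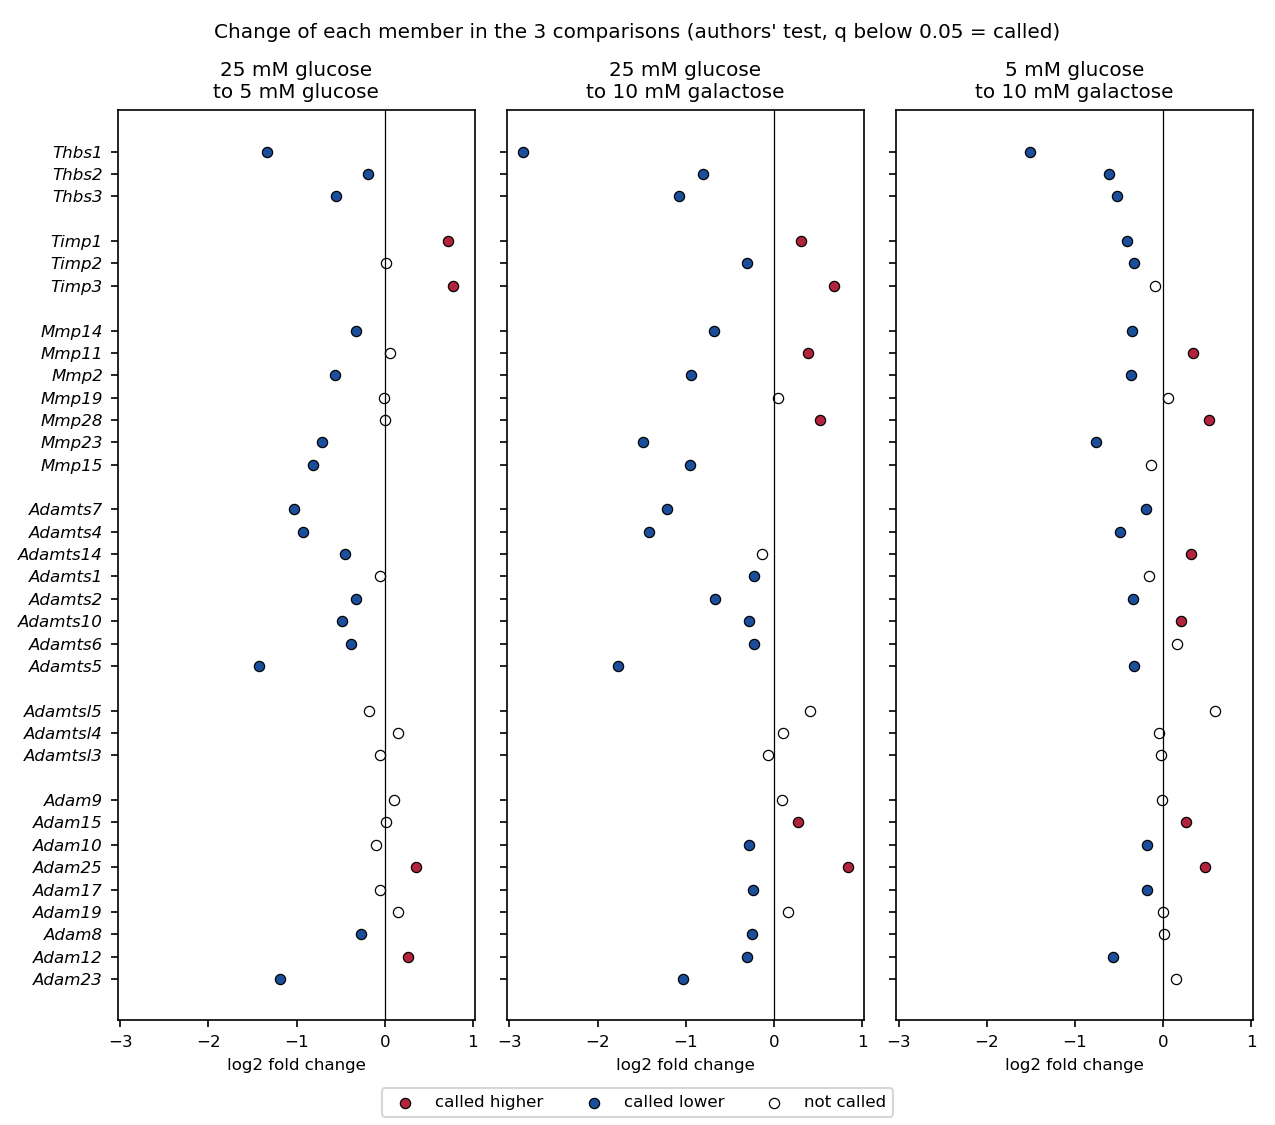
The authors' log2 fold change of each member (x axis) in the 3 comparisons, 1 panel each, with red points called higher, blue points called lower and open points not called. All 3 thrombospondins lie left of 0 in every panel, and Timp1 and Timp3 lie right of 0 in the first and second.

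All 3 expressed thrombospondins were called lower in each comparison, beside 18.2%, 24.8% and 16.0% of all tested loci. Thbs1, whose product binds CD47 and CD36 and can activate latent TGF-beta, was listed at 335 FPKM with high glucose, 133 with low glucose and 46.6 with galactose. The authors' deposited table gives log2 fold changes of -1.34 to low glucose and -2.85 from high glucose to galactose, which is 7.19-fold lower, and its q of 0.000239 is the lowest the table holds. This decline was already known when the gene families were chosen. Thbs1 lies at chr2:118111876-118127133 in RefSeq's annotation of GRCm38.p6.

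Thbs2, the closest relative of Thbs1, lies on chromosome 17 and was listed at 20.9 FPKM with high glucose, 18.3 with low glucose and 12.0 with galactose. Its log2 fold changes in the authors' deposited table were -0.19 to low glucose (q = 0.013), -0.80 from high glucose to galactose, and -0.61 between low glucose and galactose (both q = 0.000239). Thbs3, a thrombospondin of the group that forms pentamers, stood at 8.44 FPKM with high glucose, 5.75 with low glucose and 3.99 with galactose, a 2.12-fold fall from the first to the last. High glucose was highest and galactose lowest for all 3 genes, but they differed in where the fall lay: for Thbs2 the step from high to low glucose was small, for Thbs1 both steps were large. Thbs1 exceeded Thbs2 by 16.0 times in high glucose, 7.24 times in low glucose and 3.89 times in galactose. The remaining gene, Thbs4, stayed below 1 FPKM.

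The promoters of Thbs2 and Thbs3, members that fell together, differ in the letters near the start. The 250 bases before the RefSeq start are printed 5′ to 3′ on the gene's own strand, with capitals for a match to the TATA box letters TATAAA or the GC box letters GGGCGG on either strand. The Thbs2 window is chr17:14694263-14694512 on the minus strand of GRCm38.p6, and the Thbs3 window is chr3:89214930-89215179 on the plus strand.
Thbs2: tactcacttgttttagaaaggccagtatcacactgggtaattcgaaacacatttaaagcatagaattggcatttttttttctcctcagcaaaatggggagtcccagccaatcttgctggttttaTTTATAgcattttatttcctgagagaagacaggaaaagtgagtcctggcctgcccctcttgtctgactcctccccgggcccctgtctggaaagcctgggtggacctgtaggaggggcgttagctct
Thbs3: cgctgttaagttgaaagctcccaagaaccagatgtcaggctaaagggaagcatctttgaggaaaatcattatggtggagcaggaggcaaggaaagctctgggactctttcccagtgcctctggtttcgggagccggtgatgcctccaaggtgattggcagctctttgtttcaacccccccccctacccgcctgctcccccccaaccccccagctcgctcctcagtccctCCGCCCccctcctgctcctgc
The match in Thbs2 is to the TATA letters on the opposite strand, 126 bases before the start, and its window holds no GC box. The match in Thbs3 is a GC box on the opposite strand, 21 bases before the start. The table of promoters used here holds no entry for Thbs1.

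Of the inhibitors, Timp1 and Timp3 rose on leaving high glucose and Timp2 did not. Timp1, which inhibits most secreted MMPs and ADAM10, was listed at 327 FPKM with high glucose, 538 with low glucose and 405 with galactose. In the authors' deposited table it rose from high to low glucose by a log2 fold change of 0.72 (q = 0.000239) and from high glucose to galactose by 0.31 (q = 0.000456), and it was called lower from low glucose to galactose (-0.41). With the groups scaled to the same FPKM sum, its change from high glucose to galactose was 0.13. Low glucose was thus its highest group, and high glucose its lowest. Timp3, which binds to the matrix and inhibits ADAM17 and several ADAMTS enzymes as well as MMPs, stood at 75.3 FPKM with high glucose, 129 with low glucose and 121 with galactose. Its rises from high glucose were 1.71-fold to low glucose and 1.61-fold to galactose (both q = 0.000239), and low glucose and galactose were not called different (q = 0.29).

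Timp2, which inhibits MMPs and also takes part in the activation of pro-MMP2 at the cell surface together with MMP14, was listed at 282, 286 and 227 FPKM in high glucose, low glucose and galactose. High and low glucose were not called different (q = 0.85), and galactose was called lower than each, by a log2 fold change of -0.31 from high glucose and -0.33 from low glucose. The remaining inhibitor, Timp4, stayed below 1 FPKM. The rows of Timp1, Timp2 and Timp3 each cover a merged interval that holds other genes too. Timp1 shares its interval with Araf (22.2 to 25.3 FPKM) and Syn1 (6.72 to 8.14), Timp3 with Fbxo7 (7.52 to 8.43), Syn3 and 1 other row, and Timp2 with 1 row below 1 FPKM. All these neighbours were listed far below the inhibitor itself.

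The promoters of the 2 inhibitors that rose are shown in the same way, with capitals here for a match to the GC box letters or to the TEAD letters GGAATG, on either strand. The Timp1 window is chrX:20869916-20870165 and the Timp3 window is chr10:86300162-86300411, both on the plus strand of GRCm38.p6.
Timp1: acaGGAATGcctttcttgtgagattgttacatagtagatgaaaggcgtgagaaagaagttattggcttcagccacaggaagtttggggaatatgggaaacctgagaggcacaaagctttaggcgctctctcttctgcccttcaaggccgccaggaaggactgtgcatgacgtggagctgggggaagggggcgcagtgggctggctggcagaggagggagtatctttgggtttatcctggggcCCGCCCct
Timp3: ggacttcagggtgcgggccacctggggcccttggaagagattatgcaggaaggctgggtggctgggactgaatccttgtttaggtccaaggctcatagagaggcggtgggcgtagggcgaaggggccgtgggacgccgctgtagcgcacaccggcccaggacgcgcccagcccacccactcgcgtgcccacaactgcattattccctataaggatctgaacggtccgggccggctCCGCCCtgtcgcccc
Both have a GC box on the opposite strand close to the start, 8 bases before it in Timp1 and 15 in Timp3. Timp2, which did not rise, also has a GC box, 37 bases before its start on the gene's own strand. The TEAD letters occur once, in Timp1, 247 bases before the start.

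Of the 7 expressed Mmp genes, 4 were called lower from high to low glucose, beside 18.2% of all tested loci. The same 4, Mmp2, Mmp14, Mmp15 and Mmp23, were called lower from high glucose to galactose, beside 24.8% of loci. The 7 include Mmp19, which was read from a combined locus. Mmp14, the membrane-bound collagenase that activates pro-MMP2, was by far the most abundant, at 210 FPKM with high glucose, 167 with low glucose and 131 with galactose. In the authors' deposited table its log2 fold changes were -0.33, -0.68 and -0.35 in the 3 comparisons, each with q = 0.000239. Mmp2, gelatinase A, was listed at 32.4, 21.9 and 16.9 FPKM in high glucose, low glucose and galactose, a 1.91-fold fall from the first to the last. Both genes thus had their highest value in high glucose and their lowest in galactose, and the ratio of Mmp14 to Mmp2 stayed between 6.47 and 7.74.

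Mmp23, which encodes a protease that lacks the usual cysteine switch and is anchored in the membrane by its start, fell furthest of the Mmp genes, from 5.14 FPKM in high glucose to 3.13 in low glucose and 1.84 in galactose. Its log2 fold change from high glucose to galactose was -1.48 in the authors' deposited table (q = 0.000239). Mmp15, a membrane-bound relative of Mmp14, stood at 2.14, 1.22 and 1.11 FPKM, and its values in low glucose and galactose were not called different (q = 0.32).

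Other Mmp genes went the other way or were not called. Mmp11, stromelysin-3, which is activated by furin inside the cell, was listed at 34.1 FPKM with high glucose, 35.4 with low glucose and 44.7 with galactose. It was called higher in galactose than in high glucose (log2 fold change 0.39, or 0.22 with the groups scaled to the same FPKM sum) and than in low glucose (0.33). Mmp28, epilysin, had 4.09, 4.11 and 5.90 FPKM and was likewise called higher in galactose than in both glucose groups, by 1.44-fold and 1.43-fold. Its row shares an interval with a row of 1.06 to 2.77 FPKM that also had its highest value in galactose. Mmp19 had 28.5, 28.4 and 29.4 FPKM and was not called, but its locus is combined with Dnajc14, so these values cannot be assigned to Mmp19. In none of these 3 genes did high and low glucose differ by a call.

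The promoter of Mmp14, the leading protease, is chr14:54431348-54431597 on the plus strand of GRCm38.p6 and has capitals for its GC boxes.
Mmp14: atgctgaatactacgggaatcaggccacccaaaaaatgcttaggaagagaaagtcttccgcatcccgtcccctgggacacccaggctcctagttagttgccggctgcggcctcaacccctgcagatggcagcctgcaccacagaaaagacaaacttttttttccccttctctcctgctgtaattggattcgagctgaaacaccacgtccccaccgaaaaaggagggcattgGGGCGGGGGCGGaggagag
Its 2 GC boxes start 19 and 13 bases before the start and adjoin each other. The table of promoters holds no entry for Mmp2.

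The other 16 Mmp symbols were below 1 FPKM. They include the 10 genes of the cluster on chromosome 9 (chr9:7272514-7699416), with the interstitial collagenases Mmp1a, Mmp1b, Mmp8 and Mmp13, the stromelysins Mmp3 and Mmp10, and Mmp7, Mmp12, Mmp20 and Mmp27. The highest value in that cluster was 0.191 FPKM, and 8 of its genes are listed at 0 in every group. The expressed Mmp genes thus lay outside it in all 3 media.

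Set side by side, the summed levels of the inhibitors and of the Mmp genes moved apart between high and low glucose. Not every gene took part, since Timp2, Mmp11, Mmp19 and Mmp28 were not called in that comparison. The rise of the Timp sum came mostly from Timp1 and Timp3, and Mmp14 made up most of the Mmp sum. The summed FPKM of the 3 Timp genes was 685 with high glucose, 952 with low glucose and 753 with galactose, and that of the 7 Mmp genes 316, 261 and 231. Without the combined locus of Mmp19, the Mmp sum was 288 with high glucose, 233 with low glucose and 202 with galactose. The ratio of the Timp sum to the sum of all 7 Mmp rows was 2.17 with high glucose, 3.64 with low glucose and 3.26 with galactose. Ratios of single genes depended on the protease. Against genes that fell, Timp1 to Mmp14 was 1.56, 3.21 and 3.09 in high glucose, low glucose and galactose, and Timp2 to Mmp2 was 8.70, 13.1 and 13.4. Against Mmp11 the order differed, since Timp1 to Mmp11 was 9.61, 15.2 and 9.06 and Timp2 to Mmp11 was 8.28, 8.06 and 5.09. Timp3 to Adam17, an inhibitor and one of its targets, was 3.61, 6.44 and 6.84. A ratio within a group does not depend on the scaling between groups. The Timp sum in galactose is above that in high glucose as deposited and below it once the groups are scaled to the same FPKM sum, while the other directions of the Timp and Mmp sums hold. These are ratios of RNA levels, and protein and activity were not measured.

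**Figure D3:**
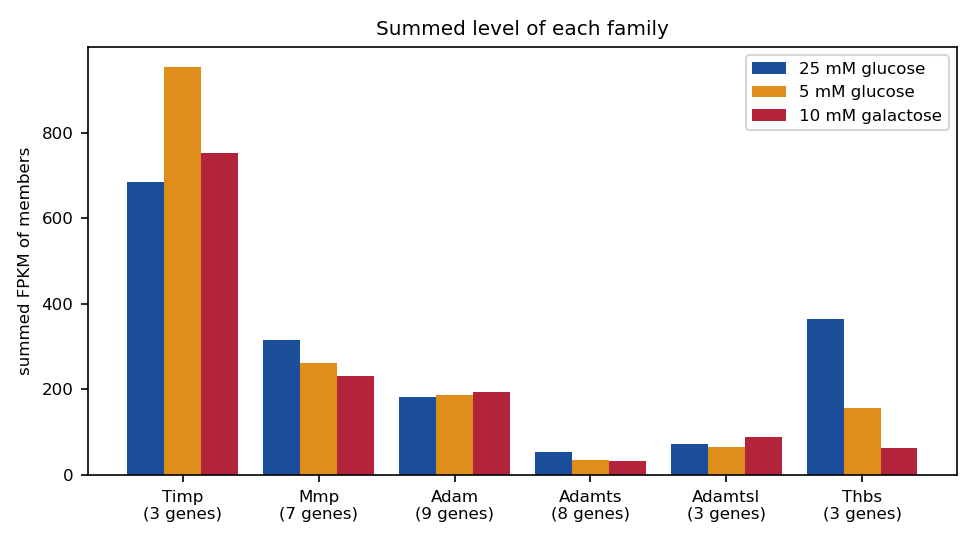
Summed FPKM of the members of each family (y axis, from 0) in 25 mM glucose, 5 mM glucose and 10 mM galactose, with 1 pooled bar per group and no error. The Thbs sum falls from 365 to 157 and 62.6 FPKM, while the Timp sum is highest in low glucose at 952.

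Most Adamts genes were lower without high glucose. From high to low glucose 7 of 8 were called lower and none higher, and from high glucose to galactose also 7 of 8 and none, beside 18.2% and 24.8% of all loci called lower. Without Adamts5, which passed the level limit in high glucose alone, the count was 6 of 7 in both. Their summed FPKM was 53.5 with high glucose, 35.5 with low glucose and 33.9 with galactose. From low glucose to galactose the family was divided, with 4 called lower and 2 higher, beside 16.0% and 17.4% of all loci.

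Adamts4 and Adamts5, the aggrecanases that cut aggrecan and versican, were among those that fell most. Adamts4 stood at 7.40 FPKM with high glucose, 3.88 with low glucose and 2.77 with galactose, with log2 fold changes in the authors' deposited table of -0.93, -1.42 and -0.49 in the 3 comparisons. Adamts5 stood at 2.66, 0.986 and 0.783 FPKM, with a log2 fold change of -1.43 to low glucose and -1.76 from high glucose to galactose (both q = 0.000239). Its values outside high glucose lie below 1 FPKM, and with a pseudocount of 1 FPKM the log2 fold changes were -0.88 and -1.04. Adamts7, which cuts cartilage oligomeric matrix protein, itself a thrombospondin, was the most abundant of the family, with 13.6, 6.69 and 5.85 FPKM. It fell 2.03-fold to low glucose and 2.32-fold from high glucose to galactose, and the step from low glucose to galactose was small (log2 fold change -0.19, q = 0.039). For all 3 genes most of the difference thus lay between high and low glucose.

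Adamts2 and Adamts14 encode procollagen N-propeptidases, which trim fibrillar procollagens. Adamts2 fell in every comparison, from 5.82 FPKM in high glucose to 4.64 in low glucose and 3.67 in galactose. Adamts14 did not follow it, with 7.28, 5.32 and 6.63 FPKM: it was called lower in low than in high glucose (-0.45), not called between high glucose and galactose (q = 0.12), and called higher in galactose than in low glucose (0.32). Adamts10, whose product binds fibrillin, had the same dip in low glucose, with 5.57, 3.99 and 4.60 FPKM, but was called lower than high glucose in both. Adamts6, the relative of Adamts10, had 4.02, 3.08 and 3.43 FPKM, with low glucose and galactose not called different (q = 0.14). Adamts1, another versican-cutting protease, had 7.18, 6.89 and 6.16 FPKM and was called only from high glucose to galactose (-0.22, q = 0.0075). Adamts1 and Adamts5 are neighbours on chromosome 16, 55.0 kb apart, and the larger fall was that of Adamts5.

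The Adamtsl genes, which encode matrix proteins without a protease domain, were not called in any comparison. Adamtsl3 stood at 7.49, 7.21 and 7.12 FPKM in high glucose, low glucose and galactose, and Adamtsl4, whose product binds fibrillin, at 12.5, 13.8 and 13.4. Adamtsl5 was listed at 51.4, 45.5 and 68.3 FPKM, a log2 fold change of 0.59 from low glucose to galactose that was not called (q = 0.44). Its row covers a merged interval of 672 kb that 44 other rows share, among them abundant genes such as Bsg, so its level is uncertain.

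The summed FPKM of the Adam rows was 182 with high glucose, 188 with low glucose and 193 with galactose. That order is lost once the groups are scaled to the same FPKM sum. The sum also holds the Adam15 locus (32.3, 32.6 and 39.1 FPKM) and the Adam25 row (11.8, 15.1 and 21.1). Both were highest in galactose and, as described below, cannot be assigned to those genes. The rise of the sum thus cannot be assigned to the Adam genes. Adam9, a sheddase and adhesion protein, was the most abundant, with 63.3, 67.8 and 67.4 FPKM, and was not called in any comparison. The sheddase of Notch and cadherins, Adam10, was listed at 27.3, 25.5 and 22.5 FPKM, and Adam17, the sheddase of TNF and of ligands of the EGF receptor, at 20.8, 20.0 and 17.7. Both were called lower in galactose than in high glucose, by log2 fold changes of -0.28 (q = 0.000239) and -0.24 (q = 0.0043) in the authors' deposited table, and neither was called between high and low glucose. The row of Adam17 shares its interval with Iah1, which was listed at 14.0, 17.6 and 25.7 FPKM in the same order and so had its highest value where Adam17 had its lowest.

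Adam12, meltrin alpha, a gene of myoblast fusion and regeneration, differed from the rest in its calls. It was listed at 4.65 FPKM with high glucose, 5.58 with low glucose and 3.76 with galactose. It was called higher from high to low glucose (0.26, q = 0.0016) and lower from high glucose to galactose (-0.31), as also from low glucose to galactose (-0.57), both with q = 0.000239. No other member had this pattern of calls. Adam19, meltrin beta, had 14.1, 15.6 and 15.6 FPKM and was not called, with q = 0.057 from high glucose to each of the others.

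Adam8, a sheddase best known from leukocytes, fell from high glucose to low glucose and to galactose, with 6.05, 5.03 and 5.08 FPKM (q = 0.045 and 0.042). Adam23, a member without protease activity, fell from 1.51 FPKM to 0.664 and 0.737, a 2.28-fold and a 2.05-fold difference close to the limit of 1 FPKM. With a pseudocount of 1 FPKM its log2 fold changes were -0.59 and -0.53. Adam15, metargidin, was listed at 32.3, 32.6 and 39.1 FPKM and called higher in galactose than in both glucose groups, but its locus is combined with Dcst1, so the rise cannot be assigned to Adam15.

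The Adam25 row was the only one called higher in all 3 comparisons, with 11.8, 15.1 and 21.1 FPKM and a log2 fold change of 0.84 from high glucose to galactose (q = 0.000239). Adam25, known from testis, has 2 rows in the table, and the other is listed at 0. Another row with the same interval and no gene symbol was listed at 5.87, 10.2 and 16.6 FPKM. The interval, on chromosome 8, also holds the processed pseudogenes Gm5749 and Gm8436 on the opposite strand in the GENCODE M21 annotation. Whether the counting used strand is not given in the sources used here, so this value cannot be assigned to the gene. The neighbouring Adam20, Adam24 and Adam39 are listed at 0 in every group.

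Over all members, 1 pattern of calls was the most common. It held the 10 genes called lower in all 3 comparisons: Adamts2, Adamts4, Adamts5, Adamts7, Mmp2, Mmp14, Mmp23, Thbs1, Thbs2 and Thbs3. Their values ran from high glucose through low glucose to galactose. Another 4 genes, Adam8, Adam23, Adamts6 and Mmp15, were called lower in low glucose and galactose than in high glucose with no call between the 2. Adamts5 in the first pattern and Adam23 in the second passed the level limit in high glucose alone. Both were thereby bound to be higher there. Adam10, Adam17 and Timp2 were called lower in galactose alone, and Adam15, Mmp11 and Mmp28 higher in galactose alone. In 6 genes no comparison was called, namely Adam9, Adam19, Adamtsl3, Adamtsl4, Adamtsl5 and Mmp19. The share of all loci with each of these patterns was not computed, so the counts describe the members only. The test of each comparison was the authors' own, and a missing call does not show that a level was equal.

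The promoter windows found for members had a higher median G and C content than all windows. Of the 33 members, 23 have a window in the RefSeq table, which spans 250 bases before to 50 after a start, with a median G and C content of 65% beside 52.7% over all 32851 windows. The 23 members have 26 windows, and for each motif the number of these windows with a match equals the number of members with a match. The GC box letters GGGCGG occurred in 20 of the 23 members, or 20 of the 26 windows, and in 35.7% of all windows. The AP-1 letters TGANTCA occurred in 2 members, Adam19 and Adam25, and in 7.81% of all windows. The TEAD letters GGAATG occurred in 2, Adam19 and Timp1, and in 14.7% of windows. The letters TGATGNAA, a C/EBP-ATF composite site, occurred in none of the 23 members and in 3.97% of windows, and the TATA letters TATAAA in 2, Adamts1 and Thbs2, and in 13.6%. Each motif was searched on both strands, and no motif is contained in another. A match says only that the letters are there. The 10 members without a window include Thbs1, Mmp2, Adamts4, Adamts5 and Adamts7. Members were chosen by their level, while all windows were taken whatever the level of the gene, so the shares compare unlike sets.

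The substrates, partners and receptors of these proteins were read from 10 lists of related genes, counting members of at least 1 FPKM. All counts from high glucose to galactose stand beside 26.5% of all loci called higher and 24.8% called lower. Of the structural matrix proteins, 11 of 15 were called lower and 1 higher in that comparison, with a median log2 fold change of -0.72. From high to low glucose 10 were called lower and 2 higher, beside 18.2% and 18.3% of all tested loci. Col6a1 and Col6a2, chains of collagen VI, fell furthest, from 27.1 to 11.9 and 5.01 FPKM and from 8.90 to 4.60 and 2.60. Latent TGF-beta genes were called lower in 6 of 7 and higher in 1 from high glucose to galactose. Tgfb3, a TGF-beta ligand, fell from 26.4 FPKM in high glucose to 17.0 and 11.4, and Ltbp3, a latent TGF-beta binding protein, from 83.9 to 56.3 in each of the others.

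Of the plasminogen system, which activates several MMPs, 3 of 8 were called higher and 3 lower from high glucose to galactose, shares not far from those of all loci. Plau, urokinase, fell from 64.6 FPKM in high glucose to 44.9 and 31.9, while Plaur, the urokinase receptor, rose from 103 to 133 and 192. Of the thrombospondin receptors and their relatives, 5 of 10 were called lower and 2 higher, and Itga3 and Itgb3, integrin subunits, fell by log2 fold changes of -1.13 and -1.09. Of ADAM10 and ADAM17 partners and shed ligands, 5 of 10 were called lower and 3 higher. Among these ligands, Areg, amphiregulin, rose from 11.5 FPKM in high glucose to 17.7 and 25.8, and Nrg1, neuregulin-1, was called lower in galactose alone, with 12.8, 11.7 and 7.62.

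**Figure D4:**
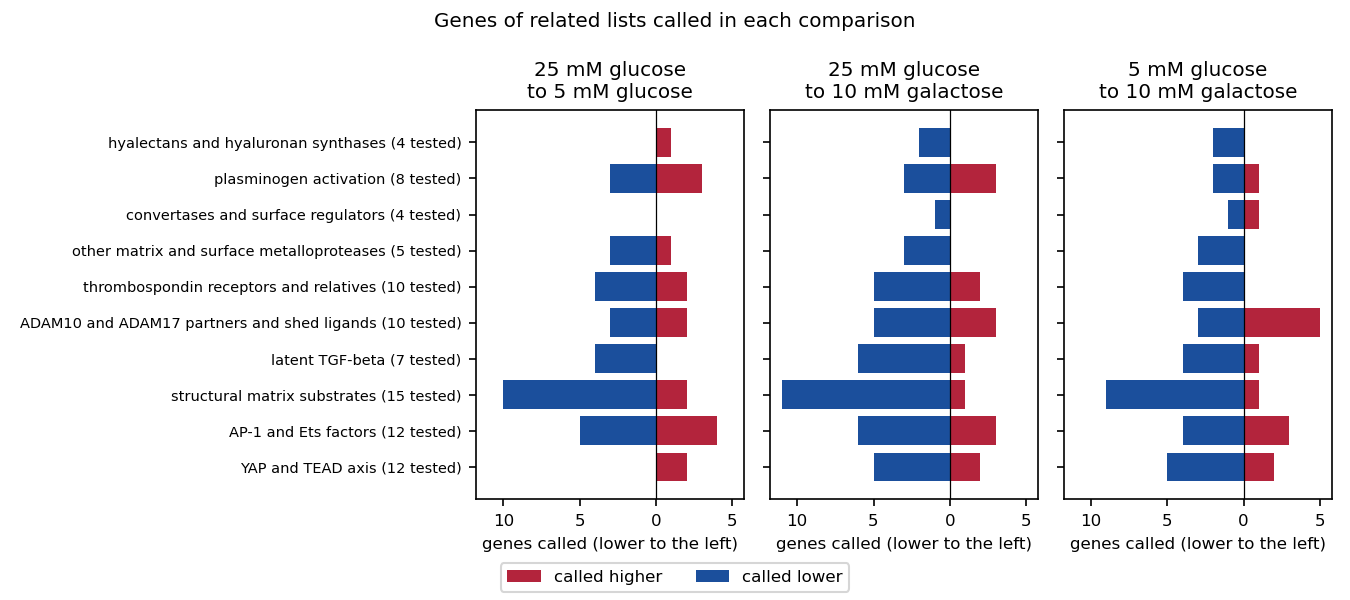
Number of genes called higher (red, to the right) and lower (blue, to the left) in each of 10 lists of related genes, 1 panel per comparison, among genes of at least 1 FPKM. Of the structural matrix substrates, 10, 11 and 9 of 15 are called lower, beside 18.2%, 24.8% and 16.0% of all tested loci.

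The smaller lists held few expressed genes. Of 5 other metalloproteases and their helpers, 3 were called lower and none higher from high glucose to galactose, with the combined locus of Pcolce, a procollagen C-proteinase enhancer, and Fbxo24 at 441, 327 and 251 FPKM, which cannot be assigned to either gene, and Ece1, endothelin-converting enzyme, at 31.5, 27.9 and 19.0. Of 4 hyalectans, hyaluronan synthases and receptors, 2 were called lower, Has2 (14.6, 15.3 and 8.71 FPKM) and Cd44 (113, 107 and 78.4). Of 4 convertases and surface regulators, 1 was called lower, a share near that of all loci, namely Reck, a membrane inhibitor of MMPs, with 1.14, 1.02 and 0.781 FPKM. None of the genes of at least 1 FPKM in these lists was called higher in that comparison.

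Factors known to act on MMP and thrombospondin genes, and a wider list of genes of the YAP and TEAD axis, were read in the same way. Of 12 AP-1, Ets and related factors, 6 were called lower and 3 higher from high glucose to galactose, and the share called higher is near that of all loci. Egr1, an immediate early gene, fell from 41.9 FPKM in high glucose to 30.0 and 13.4, and Fos, an AP-1 subunit, from 2.22 to 1.41 and 0.780. The 3 called higher were Etv4, Etv5 and Fosl1, a more abundant AP-1 subunit with 130, 190 and 187 FPKM. Of 12 genes of the YAP and TEAD axis, 5 were called lower and 2 higher, and the 2 that rose were Ctgf, a matricellular protein, from 82.2 to 115 and 176 FPKM, and Tead4, a TEAD factor, from 7.67 to 10.2 and 15.1. Between high and low glucose, 2 of these 12 were called, both higher, a share near the 18.3% of all loci.

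The identity of the cells was checked against marker lists. All 7 myoblast markers were at 1 FPKM or more, but their summed level fell from 872 FPKM in high glucose to 569 in low glucose and 462 in galactose. All 7 were called lower in galactose than in high glucose, beside 24.8% of all tested loci. Of 6 fibroblast markers 2 reached 1 FPKM, mostly Pdgfrb, and their sum fell from 54.7 to 34.1 and 20.3 FPKM, while Thy1, Lum and Tcf21 are listed at 0. Of 6 osteoblast and chondrocyte markers 2 reached it, Sox9 and Bglap, and the sums of the list were 34.2, 28.1 and 27.7 FPKM. Sox9 made up most of these sums and was called lower in low glucose and in galactose than in high glucose. Bglap was read from a combined locus of 3 symbols, with 0.965, 1.16 and 1.68 FPKM, and was not called. Sp7 (0.242, 0.621 and 0.274 FPKM) and Col2a1 (0.165, 0.445 and 0.0893) went the other way from high to low glucose, where both were called higher. Among leukocyte markers Ptprc and Csf1r were below 0.1 FPKM, and Cd68 is part of a combined locus with Eif4a1 of 72.7 to 98.6 FPKM that cannot be assigned to it. None of 4 endothelial and 3 adipocyte markers reached 1 FPKM. The part of these shifts in the members' changes was not tested.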

How the data were processed

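PolyA RNA of C2C12 cells in 3 media was sequenced from 4 libraries per group. The submitters' processing notes name Cuffdiff with no version, Cufflinks 2.2.0, TopHat2 2.0.10 and the mouse build mm10; settings are not given in the sources used here. For each locus the authors' deposited table has a pooled FPKM for every group and, for each comparison, a log2 fold change, test score, p-value and q-value, per the file headers. Its q-value is a Benjamini-Hochberg adjustment over all 44006 tests of 3 comparisons, which was checked by recomputing it. Among members the deposited log2 fold change is the ratio of group values with no pseudocount. The lowest q was reached in 49 of the members' 99 tests.

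Symbols were taken from the gene column, and a symbol in several rows from the row with the highest summed FPKM. A call needs status OK and q below 0.05. The members, the gene lists and the markers were chosen with earlier results of these data known. The rule for naming took members that reach 10 FPKM, are called with a change of 2-fold or more, or lead their family; the other 10 are given so that all are accounted for. Of each related list, up to 2 genes called with the largest change from high glucose to galactose are named. Other neighbours and examples were chosen after their values were seen. Promoter windows and positions are from RefSeq (GRCm38.p6); the GC box and TATA box were added after seeing the data. Alternatives were q below 0.01, q within a comparison, a 2-fold limit, other FPKM limits and a pseudocount of 1 FPKM. Scaling to the same FPKM sum, and leaving out members whose interval holds other rows, were added after seeing the data. No test was run beyond the authors'. Python 3.11.15, pandas 2.3.3, numpy 2.4.6 and matplotlib 3.10.9 were used.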

Additional observations from a re-analysis of the deposited data

How the results depend on the processing

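Only pooled values per group are in the table, so no library could be left out. No paired analysis was possible because the table has no column per library. With a limit of at least 1 on the absolute log2 fold change, 0 members were called higher and 4 lower from high to low glucose, 0 and 7 from high glucose to galactose, and 0 and 1 from low glucose to galactose. The other 36 counts of calls under the remaining alternatives were within 1.5 times the reported ones. The median log2 fold change from high to low glucose was -0.058 among members of at least 5 FPKM, -0.26 with values scaled to the same FPKM sum and -0.33 without the 8 members whose interval holds other rows. From high glucose to galactose it was -0.42 after scaling, and from low glucose to galactose -0.22 after scaling and -0.090 with a pseudocount of 1 FPKM. Scaling was followed member by member only for the 23 members named by the rule, and the same shift applies to the others. Among the 23, called changes from high glucose to galactose moved by over 1.5 times to -0.46 for Adam10, -0.41 for Adam17 and -0.48 for Timp2. They also moved to 0.11 for the Adam15 locus, 0.22 for Mmp11 and 0.13 for Timp1. No median or called member changed sign under any of these. For the steps that change which members enter, the change in the set of members is part of the construction; otherwise the cause was not tested. Depth is unknown, and the levels of members sharing an interval or a locus are uncertain.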
